A study of Nothobranchius furzeri with 16 samples.

Results

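The adipose response to fasting was examined in old wild-type males of the killifish strain GRZ-AD (Nothobranchius furzeri, an annual species with a short life). The members were the 8 old fish among the 16 fish sequenced: 4 fasted for 72 h and 4 refed for 24 h after a fast of that length, all 18 weeks old by the labels. The members were chosen by age and feeding group alone, and all 18606 fish genes among the 18680 rows of the deposited table were compared between them. The 4 fasted and 4 refed young fish, 7 weeks old by the labels, are given only where the old response is set beside theirs. Every fish was housed singly and gave its own library, and no group was fed throughout, so a difference between fasted and refed fish cannot be assigned to the fast or to the meal that followed it. Total RNA of the tissue went into the libraries, and in such bulk samples fewer cells of a type and less RNA per cell cannot be told apart.

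Adipose tissue stores triglycerides after a meal and releases fatty acids during a fast. In vertebrates the fed state, through insulin, favours uptake of lipid and synthesis of fatty acids, whereas fasting favours lipolysis and oxidation. The table identifies genes by Ensembl-style identifiers, none of which could be paired with a symbol by the reference used here. Genes are therefore described by their level, their rank and their behaviour across fish, and the tissue label could not be checked against adipocyte markers. The values are normalised by the authors to a scale whose units are called units here. Whether they were divided by transcript length is not stated in the sources that were read, so a rank in abundance may also reflect length.

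The values of all genes summed to 21.3, 20.8, 19.0 and 21.0 M units in the old fasted fish, against 16.7, 17.0, 14.3 and 15.6 M units in the old refed fish. The median gene stood at nearly the same level in both groups, at 157 to 163 units in fasted fish and 165 to 168 units in refed fish. The totals are not read numbers. The step between the lowest values of a fish gave rough depths of 32.7 to 38.4 M reads in old fasted fish and 20.5 to 35.9 M reads in old refed fish, with refed replicate 3 the lowest. ERCC spike-ins, synthetic RNAs added to each sample, took 3.84%, 4.18%, 4.50% and 4.33% of the column total in fasted fish, against 3.58%, 3.13%, 3.70% and 3.58% in refed fish. Fasted replicate 1 also stood apart from the other fasted fish, as described below.

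On the deposited scale 2253 genes (12.1% of those tested) were higher and 2589 (13.9%) were lower in old fasted fish than in their refed counterparts, together 4842 genes or 26.0% (limma fitted across all genes, Benjamini-Hochberg adjusted p under 0.05). Most of these differences were small. The median log2 fold change was 0.53 among the higher genes and -0.58 among the lower genes, and 2061 called genes (42.6%) differed by under 0.5 on the log2 scale. A change of at least 1 on that scale was reached by 288 higher genes (12.8% of the higher) and 398 lower genes (15.4% of the lower). A change of at least 2 was reached by 25 higher and 21 lower genes. Over all genes the median was -0.02, with 90% of genes between -0.84 and 0.67.

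The balance between the directions depended on the scale. With the total of every fish set equal, 459 genes were higher and 7918 lower, and the median of all genes moved by -0.36 on the log2 scale. With fish scaled to their spike-ins, 178 were higher and 13916 lower, and the median moved by -0.65. Directions are therefore relative to the median gene of a fish unless another scale is named.

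Direction and size changed with the level of a gene, taken as its mean over the 8 old fish. Among the 677 genes below 10 units, 15 were higher (2.22%) and 9 lower (1.33%). From 10 to 100 units, 351 of 6194 genes were higher (5.67%) and 610 lower (9.85%). From 100 to 1000 units, 1436 of 10079 were higher (14.2%) and 1738 lower (17.2%). From 1000 to 10000 units the order was turned round, with 377 of 1514 higher (24.9%) and 230 lower (15.2%). Of the 142 genes at 10000 units and over, 74 were higher (52.1%) and 2 were lower (1.41%), against 12.1% and 13.9% of all genes. The median log2 fold change over these classes was -0.05, -0.04, -0.02, 0.09 and 0.37. In the highest class 89.4% of genes had a positive value, with quartiles of 0.28 and 0.77. The number called higher in this class was 39 without refed replicate 3, 42 without fasted replicate 3 or 4 and 45 without refed replicate 4, with 1 or 2 genes called lower each time. It rose to 82 without refed replicate 1, with 1 gene called lower.

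**Figure D1:**
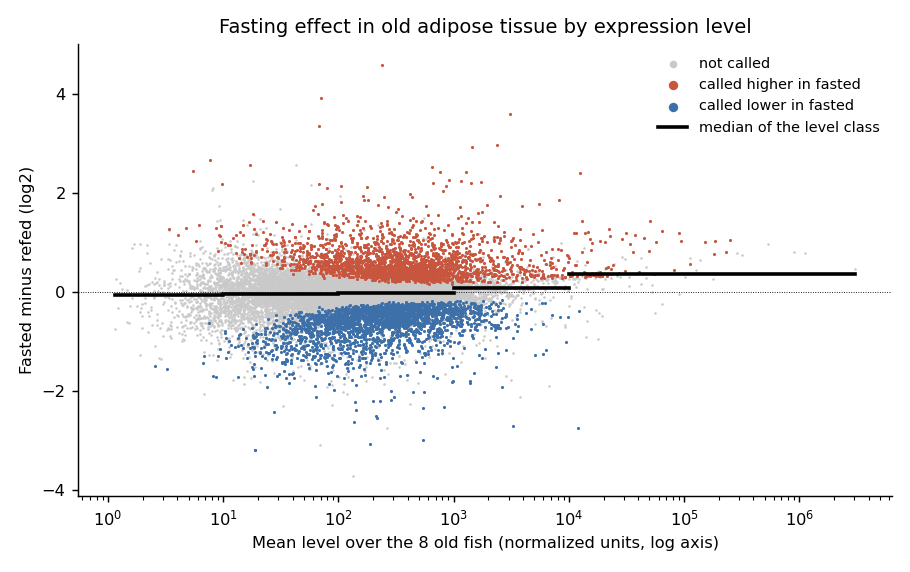
Log2 fold change of old fasted over old refed fish against the mean level over the 8 old fish (units, log axis), 1 point per gene, coloured by call, with a bar at the median of each class. The bar lies at -0.05, -0.04, -0.02, 0.09 and 0.37 from the lowest class to the highest, where 74 of 142 genes were called higher and 2 lower.

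The precision also changed with level. The median SD of a gene among fish of a group was 0.50 in fasted fish and 0.53 in refed fish below 10 units, and 0.14 in fasted and 0.16 in refed fish from 100 to 1000 units (log2 scale, n = 4 each). At the spread of the lowest genes, the 24 calls made among them do not show how many of them changed. At 10000 units and over the SD was 0.18 in fasted and 0.27 in refed fish. On equal totals the highest class had 25 higher and 11 lower genes with a median of 0.01, and on the spike-in scale 6 higher and 65 lower genes with a median of -0.29. Each of these scales multiplies all values of a fish by a single factor. The place of the 2 highest classes above the others is therefore kept by construction and is not tested by them. Medians for the first 3 classes were -0.37, -0.40 and -0.39 on equal totals, against 0.01 for the highest.

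A contrast free of the scaling between fish was had by subtracting, within each fish, the median of all genes from the median of a class. For the genes of 10000 units and over this was 7.00, 6.94, 7.13 and 7.13 in old fasted fish, against 6.74, 6.69, 6.49 and 6.59 in old refed fish (log2 scale). All fasted fish lay above all refed fish, by 0.42 in the means (exact permutation test, two-sided p = 0.0286, the smallest that 4 against 4 fish can give). Adjusted over the 5 classes this p was 0.0714. For the genes from 1000 to 10000 units the values were 3.27, 3.27, 3.29 and 3.36 in fasted fish, against 3.22, 3.22, 3.10 and 3.24 in refed fish, again without overlap (difference 0.10, exact p = 0.0286, adjusted p = 0.0714). The 3 lower classes differed by 0.03, -0.03 and 0.03 in order of level, with exact p-values of 0.686, 0.371 and 0.114.

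The same quantities were set beside those of young fish. Below 10 units the class median of fasted minus that of refed fish was 0.03 in old and 0.33 in young fish, and from 10 to 100 units it was -0.03 in old and 0.15 in young fish. At 10000 units and over the difference was 0.42 in old and 0.16 in young fish. The effect in old minus that in young fish was -0.30, -0.19, 0.06, 0.16 and 0.26 from the lowest class to the highest. Each passed a permutation of the age labels within feeding groups (adjusted p = 0.00816, 0.00816, 0.0241, 0.0197 and 0.0241 over the 5 classes). Below 10 units the value depended on the pseudocount, at -0.35 with 0.1 and -0.19 with 5 in place of 1. In old fish the largest of these medians was at the highest level, and in young fish at the lowest. Every old fish had a lower rough depth (20.5 to 38.4 M reads) than every young fish (40.2 to 51.4 M reads), so age and depth cannot be told apart in this comparison.

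**Figure D2:**
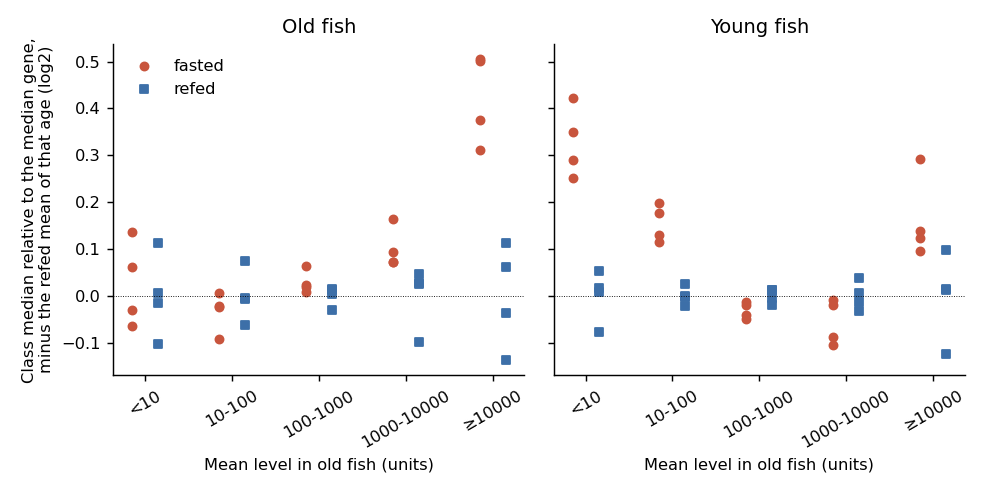
Median log2 level of each class minus the median of all genes in the same fish, drawn as the difference from the refed mean of that age, 1 point per fish, with fasted left of refed fish and old left of young fish. In old fish the groups are apart from 1000 units upward, by 0.42 in the means at 10000 units and over, and mixed below 1000 units.

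The total was held by fewer genes in old fasted fish. The 50 most abundant genes, ranked by their mean over the 8 old fish, held 58.2%, 58.5%, 53.7% and 57.0% of the total in the old fasted fish, against 49.1%, 50.7%, 45.3% and 45.1% in the old refed fish. Every fasted fish lay above every refed fish, with means of 56.8% ± 2.18 in fasted fish, n = 4, and 47.6% ± 2.80 in refed fish (SD, n = 4), a difference of 9.29 percentage points (exact permutation test, p = 0.0286, adjusted p = 0.0357 over 5 such shares). The shares of the 10, 100 and 500 most abundant genes were also apart without overlap, at the same p. These sets are nested, so they are not separate results. The genes of rank 51 to 500 alone held 16.7% ± 1.01 in fasted fish and 17.9% ± 0.993 in refed fish (SD, n = 4 each), with overlap. They did not add to the excess. The 10 most abundant held 42.1%, 43.5%, 39.6% and 43.4% in fasted fish, against 36.6%, 36.7%, 31.0% and 33.6% in refed fish. Shares do not depend on the scale of a fish. In young fish the same 50 genes held 67.5% ± 0.863 when fasted and 62.6% ± 4.25 when refed, a difference of 4.93 points. The difference for the 10 most abundant was 7.67 points in old and 7.23 points in young fish. The difference between ages did not pass for either share (permutation of age labels, p = 0.569 for the 50 and 0.931 for the 10 genes), nor for the other 3 shares. The means of both shares were higher in young than in old fish in each feeding group, which widens the values this permutation can give. The test is therefore weak here and does not show that the effects are equal.

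The share of the most abundant gene did not separate the groups. It took 16.3%, 17.1%, 15.7% and 19.5% of the total in fasted fish, against 19.3%, 15.5%, 11.9% and 18.5% in refed fish, and the groups overlapped (exact p = 0.686). In young fish its mean share was 17.8% when fasted and 9.16% when refed, again with overlap. The difference was 0.90 points in old and 8.66 points in young fish. It did not pass between the ages (permutation of age labels, p = 0.0727). In the means, the differences for the 10 most abundant genes were therefore made up differently in old and young fish. In old fish the genes of rank 2 and 3 behaved differently from the most abundant gene. The gene of rank 2 held 6.58%, 7.00%, 7.07% and 7.01% in fasted fish, against 5.24%, 5.34%, 4.86% and 5.23% in refed fish. That of rank 3 held 4.96%, 5.69%, 5.89% and 6.06% in fasted fish, against 4.12%, 4.27%, 4.07% and 4.07% in refed fish. Both shares were thus higher in every fasted fish, with little spread in refed fish. Their log2 fold changes in units were 0.79 (SE 0.35) and 0.82 (SE 0.31), with limma adjusted p-values of 0.111 and 0.0664, so neither was called. Without the trend that raises the assumed variance of abundant genes, their limma adjusted p-values were 0.000345 and 0.000392. That setting was chosen after seeing the data and does not replace the planned fit.

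**Figure D3:**
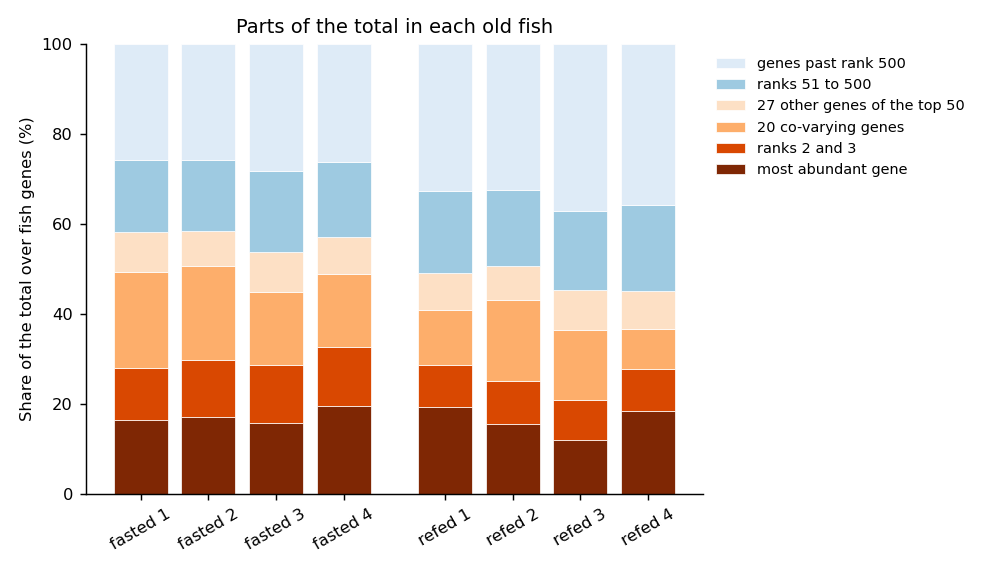
Percentage of the total held by sets of genes in each old fish, as stacked bars, fasted left of refed. The 50 most abundant genes together hold 53.7% to 58.5% in fasted and 45.1% to 50.7% in refed fish, while the most abundant gene alone overlaps between the groups.

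The number of genes that make up a given part of the total gave the same picture. In old fasted fish 21, 19, 32 and 21 genes held 50% of the total, against 55, 45, 93 and 90 genes in old refed fish. To reach 90% of the total, 3983, 3981, 4365 and 3953 genes were needed in fasted fish, against 5085, 5073, 5925 and 5468 in refed fish. Neither count overlapped between the groups (exact p = 0.0286 each). Genes of 10000 units and over together held 64.7% ± 1.63 of the total in fasted fish, against 55.5% ± 2.69 in refed fish (SD, n = 4 each). Those from 100 to 1000 units held 16.6% ± 0.76 in fasted fish, against 21.9% ± 1.52 in refed fish.

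On the deposited scale, the excess in the total of fasted fish can be traced to genes. The totals and their parts below belong to that scale, and on equal totals the excess is absent by construction. Spike-ins took 3.84% to 4.50% of the column total in fasted fish, against 3.13% to 3.70% in refed fish. Relative to the spike-ins, the fish genes thus summed to less in fasted fish. The mean total was higher by 4.61 M units in fasted fish, made of gains of 5.48 M units over 8777 genes and losses of 0.866 M units over 9829 genes. The gains were concentrated, since 7 genes made up 50% of them and the genes of rank 1 to 3 made up 36.8%. None of the genes of rank 1 to 3 was called. The gene of rank 1 overlapped between the groups (log2 fold change 0.47, limma adjusted p = 0.574). The losses were spread, since 972 genes were needed for 50% of them, and the largest loss of any gene, at abundance rank 117, was 0.0169 M units. The 50 most abundant genes accounted for 88.8% of the net difference. Without them the totals were 8.91, 8.62, 8.79 and 9.04 M units in fasted fish, against 8.52, 8.39, 7.82 and 8.56 M units in refed fish, still without overlap (exact p = 0.0286). Of these 50 genes, 23 (46.0%) were called higher in fasted fish and 0 lower, against 12.1% and 13.9% of all genes. In their own class of 10000 units and over, 52.1% were called higher, so the 50 did not exceed their class by this share. That order depended on the setting. The 50 lay above the class on equal totals (24.0% against 17.6%) and without the variance trend (58.0% against 54.9%). On the spike-in scale they lay below it (2.00% against 4.23%). Of the 50, 47 had a positive log2 fold change, with a median of 0.68 (-0.42 to 1.44), against a median of 0.37 in the class. In young fish 1 of the 50 was called higher and 1 lower, against 53.1% of all genes called there, and the median was -0.02. The difference between ages was called for 6 of the 50, each with the higher log2 fold change in old fish, against 14.1% of all genes. For the gene of rank 20 this was a fall in young fish (-0.83) with little change in old fish (-0.03). The others had positive values in old fish. Among the 10 most abundant genes 4 (40.0%) were called higher in old fasted fish, against 12.1% of all genes and 52.1% of the class. They stood at ranks 7, 8, 9 and 10, with log2 fold changes of 1.06, 0.81, 1.03 and 0.78 (limma adjusted p = 0.0164, 0.0379, 0.0148 and 0.0412). All 4 belong to the block of co-varying genes described below, so they are not separate results. These counts moved with the fish used: without refed replicate 4 the number called higher was 15 of the 50, and among the first 10 it was 1 without fasted replicate 2 and 2 without fasted replicate 1 or 4 or refed replicate 3 or 4. Among the first 10 it was 5 without refed replicate 2. Without the variance trend, a setting chosen after seeing the data, 29 of the 50 and 8 of the first 10 were called higher. With the 8 old fish fitted alone, ranks 8 and 10 were not called (adjusted p = 0.0932 and 0.0782). On equal totals 12 of the 50 were higher and 1 lower, and on the spike-in scale 1 was higher and 10 lower.

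**Figure D4:**
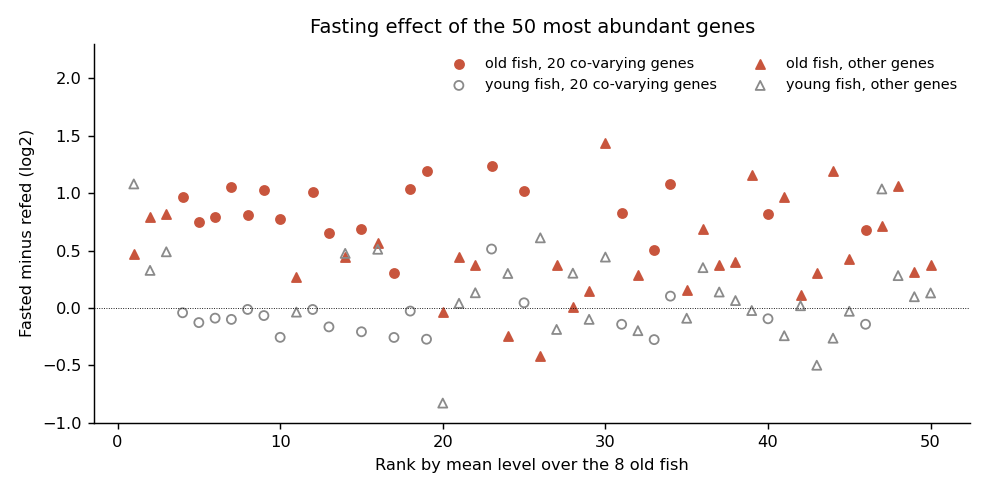
Log2 fold change of fasted over refed fish for the 50 most abundant genes by rank, filled for old and open for young fish, with circles for the 20 genes that varied together and triangles for the others. In old fish 47 of the 50 lie above 0, with a median of 0.68, against a median of -0.02 in young fish.

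A block of the 50 genes varied together from fish to fish. It was drawn up after its values were seen, as the gene of rank 4 and those whose deviations from the group means on the log2 scale correlated with it by at least 0.9 over the 8 old fish, 20 genes in all. They are given as a description, without a test. The other members had r of 0.91 to 0.99 in old fish, and in the young fish, which the choice did not use, r was 0.81 to 0.99. The other 30 genes of the top 50 had r of -0.77 to 0.85 in old fish and -0.53 to 0.98 in young fish. A high r in young fish is therefore not particular to the block. These correlations are over few fish, and all the genes of a fish share its library and scale. The block held 21.4%, 20.8%, 16.2% and 16.2% of the total in old fasted fish, against 12.1%, 17.9%, 15.5% and 8.83% in old refed fish. The groups overlapped, since refed replicate 2 lay above fasted replicates 3 and 4. In young fish it held 24.1%, 25.8%, 31.5% and 37.1% when fasted, against 39.9%, 36.1%, 31.5% and 32.1% when refed. The difference of fasted minus refed means was 5.09 points in old and -5.27 points in young fish. The median log2 fold change of its genes was 0.82 in old and -0.10 in young fish. In old fish 12 of 20 were called higher, against 12.1% of all genes and 52.1% of those at 10000 units and over. In young fish 0 were called, against 53.1% of all genes. The genes of the block varied together, so neither count is one of separate results. With the block taken out of share and total alike, the other 30 genes of the top 50 held 46.8%, 47.6%, 44.8% and 48.6% in old fasted fish, against 42.1%, 40.0%, 35.3% and 39.8% in old refed fish. The groups were then apart as before. In young fish these 30 genes held 53.7% ± 3.63 when fasted and 42.7% ± 3.56 when refed, again without overlap. The difference was 7.67 points in old and 11.0 points in young fish, and was not tested between the ages.

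Past the 50 most abundant genes, the highest class held 92 genes. Of these, 44 (47.8%) had log2 fold changes in a narrow band from 0.2 to 0.4, against 13.5% of all genes. The band was chosen after the values were seen, so their higher level in fasted fish is fixed by that choice and is a description. Relative to the refed mean, the median of these 44 genes was 0.27, 0.29, 0.40 and 0.34 in old fasted fish, against 0.26, -0.02, -0.18 and -0.05 in old refed fish, so refed replicate 1 lay close to the fasted fish. As a share of the total they held 3.49%, 3.56%, 4.15% and 3.72% in fasted fish, against 4.31%, 3.51%, 3.70% and 3.89% in refed fish. These shares overlapped between the groups. In young fish the median log2 fold change of the 44 was 0.03, and 4 were called, against 53.1% of all genes.

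Genes without overlap between the groups were common. In 2316 genes (12.4%) every old fasted fish lay above every old refed fish, and in 2707 (14.5%) every fasted fish lay below. Of these, 1837 and 2160 were also called by limma. The gap between the groups, taken as the lowest value of the higher group over the highest of the lower group with 1 unit added to each, was narrow in most, with a median of 1.10 for higher and 1.12 for lower genes. It reached 1.5 in 139 higher and 162 lower genes. A gap of at least 2, called switch-like here, was found in 24 higher genes (0.129% of all genes) and 11 lower genes (0.0591%). It reached 3 in 4 higher and 1 lower gene and 4 in none. The genes just outside the limit had gaps of 1.98 in both directions, and those just inside had 2.00 among higher and 2.06 among lower genes. No gene lay under 5 units in all fish of a group and at 20 units or more in all fish of the other, and none was listed at 0 in a whole group and above 0 in every fish of the other. At the widest gaps, too, the gene was measured in both groups.

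The widest gap, 3.93, belonged to a gene at 3412, 3540, 4390 and 5290 units in old fasted fish, against 731, 407, 285 and 869 units in old refed fish, singled out by its gap after the values were seen. Its log2 fold change was 2.97 (SE 0.38). The next widest among higher genes stood at 2177, 2146, 1965 and 2371 units in fasted fish, against 350, 356, 373 and 545 units in refed fish, a tighter pair of groups. The widest gap among lower genes, 3.75, belonged to a gene at 16.1, 14.0, 19.4 and 11.8 units in fasted fish, against 226, 75.4, 483 and 234 units in refed fish. Its log2 fold change was -3.71 (SE 1.42), and it was the only switch-like gene not called (limma adjusted p = 0.0656). Young fasted replicate 4, at 6236 units, enters the estimate of spread that all groups share.

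The switch-like genes were of middling level. Their mean over old fish had a median of 233 units for the 24 higher genes and 286 units for the 11 lower genes, and the most abundant of them had ranks 114 and 117. Their median log2 fold change was 2.05 (1.21 to 3.37) for the higher and -1.99 (-3.71 to -1.34) for the lower genes. In young fish, which were not used to choose them, all 24 higher genes were called higher in fasted than in refed fish, against 27.1% of all genes, with a median of 2.65. Of the 11 lower genes 9 were called lower in young fish, against 26.0% of all genes, with a median of -2.28. The change was larger in young than in old fish in 20 of the 24 and in 8 of the 11. Over all genes 53.1% were called in young and 26.0% in old fish, so this may not be particular to the switch-like genes. The share of all genes with a larger change in young fish was not taken. The difference between ages was itself called for 5 genes in each direction, with the smaller change in old fish for 4 of the 5 each time, against 14.1% of all genes called.

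**Figure D5:**
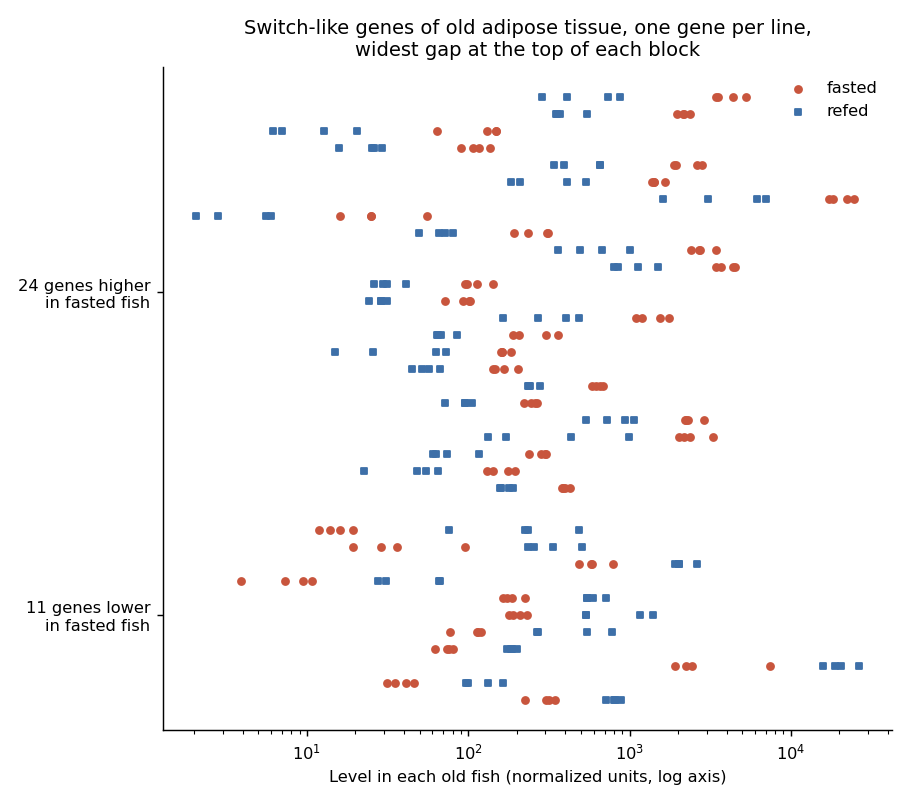
Units per fish, on a log axis, for the switch-like genes, old fasted beside old refed, ordered by gap. Every fasted fish lies above every refed fish in the 24 higher genes and below in the 11 lower genes, by at most 3.93-fold in the gap.

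Fasted replicate 1 set many of the gaps. Among non-overlapping called genes it was the fasted fish nearest to the refed fish in 54.6%, against 17.2%, 14.3% and 13.8% for fasted replicates 2, 3 and 4. Along the fasting response of young fish, measured over the 9881 genes called there and scaled to 0 at the mean of old refed fish and 1 at a full young response, the old fasted fish stood at 0.29, 0.50, 0.50 and 0.48. The old refed fish stood at 0.03, -0.05, 0.01 and 0.01. The young response is 1 by construction, since the axis is the young mean difference over genes called in those young fish. That choice of genes can lower the values of other fish, so 0.29 to 0.50 is not the size of the old response relative to the young. All fasted fish were thus displaced in the direction of young fasted fish, and replicate 1 the least. Without fasted replicate 1 the switch-like genes were 42 higher and 96 lower. Leaving out a fish can only keep or widen a gap, so all 24 and 11 were among them by construction. Of the 85 added lower genes, in which replicate 1 is the highest fasted fish by construction, 72 had it below every refed fish. Without refed replicate 4 there were 47 higher and 25 lower switch-like genes, and the lower genes numbered 20 without fasted replicate 3, 30 without refed replicate 1 and 18 without refed replicate 3.

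By the rule for named genes, the largest rises and falls were sought among called genes of at least 100 units without overlap. ENSNFUG00015009623 had 295, 293, 353 and 657 units in old fasted fish, against 266, 1.54, 0.70 and 49.6 units in old refed fish. Its log2 fold change of 4.60 (SE 1.29, limma adjusted p = 0.0163) stood beside a wide refed group, in which replicate 1 nearly reached the fasted fish. That value averages logs, and refed replicates 2 and 3 lay near the 1 unit added before taking them. The ratio of the group means in units was 5.03. ENSNFUG00015019120 had 5513, 3045, 8307 and 3699 units in fasted fish, against 1500, 43.1, 133 and 2662 units in refed fish (3.60, SE 1.08, adjusted p = 0.0230). In both genes the refed fish were the variable group, spanning over an order of magnitude. Each lost its call without refed replicate 2 (adjusted p = 0.0561 and 0.0740) or without refed replicate 3 (0.0537 and 0.0697), and the second of them without fasted replicate 3 (0.0625) or with the 8 old fish fitted alone (0.0552).

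Of the genes that fell, ENSNFUG00015018457 had 95.1, 28.9, 36.0 and 19.2 units in old fasted fish, against 234, 337, 257 and 511 units in old refed fish. It fell by 3.06 on the log2 scale (SE 0.46, limma adjusted p = 0.000400) and was also among the switch-like genes. Replicate 1 was the highest of the fasted fish here too. In young fish the log2 fold change was -5.59, and the difference of old minus young was 2.53 (adjusted p = 0.0193). ENSNFUG00015017198 had 48.8, 66.4, 171 and 46.7 units in fasted fish, against 205, 2353, 1303 and 175 units in refed fish. Its value was -3.00 (SE 0.94, adjusted p = 0.0289). Refed replicates 2 and 3 stood far above the other two, and the gap between the groups was 1.02. Leaving out fasted replicate 1, 2 or 4 or refed replicate 2 or 3 ended the call (adjusted p = 0.0624, 0.0617, 0.0735, 0.0954 and 0.0810).

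The genes followed by the study lay in the class from 100 to 1000 units. Tfeb (ENSNFUG00015019917), which drives transcription for lysosomes and autophagy, had 299, 281, 338 and 355 units in old fasted fish, against 345, 298, 195 and 310 units in old refed fish, and was not called (0.17, limma adjusted p = 0.522). Smad3b (ENSNFUG00015007897), a receptor-activated SMAD that carries TGF-β and activin signals, had 391, 378, 332 and 515 units in fasted fish, against 283, 171, 211 and 274 units in refed fish (0.79, adjusted p = 0.00350). Smad4 (ENSNFUG00015017545), the common partner of those SMADs, had 168, 181, 167 and 178 units in fasted fish, against 103, 124, 112 and 116 units in refed fish (0.60, adjusted p = 0.00581). Smad2 (ENSNFUG00015023992) had 277, 342, 318 and 339 units in fasted fish, against 280, 250, 292 and 262 units in refed fish, and its call was marginal (0.23, adjusted p = 0.0493), being lost without fasted replicate 2, 3 or 4 or refed replicate 1, 2 or 4 (adjusted p = 0.133, 0.0911, 0.131, 0.0594, 0.135 and 0.102) and with the 8 old fish fitted alone (0.107). Within their class the log2 fold changes of smad3b and smad4 stood at percentiles 97.3 and 94.8 of all genes, and those of smad2 and tfeb at 78.0 and 72.7. On equal totals tfeb and smad2 had values of -0.19 and -0.14, and smad3b (0.42, adjusted p = 0.0559) and smad4 (0.24, adjusted p = 0.155) were no longer called. On the spike-in scale tfeb and smad2 were called lower (-0.49 and -0.43, limma adjusted p = 0.0172 and 0.000856), as were 84.0% of the genes in their class.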

How the data were processed

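RNA of adipose tissue from 16 fish was sequenced on an Illumina instrument. Extraction was done at the same time for all fish. The authors discarded ribosomal and transfer RNA reads, then applied kallisto 0.45.0 against Nfu_20140520, and tested groups with DESeq2 1.24.0. They deposited a normalised signal for each gene, and its scaling is not given in the sources that were read. Since they are not read numbers, no count model was used. Low values lay within 0.1 of a whole multiple of the step of a fish for only 68.8% to 82.1%, so whole reads were not recovered, the depths are rough, and no counting interval is given.

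Log2(value + 1) was modelled in limma 3.58.1 (R 4.3.3, eBayes, trend in the variance prior) for 18606 genes over all 16 fish in 4 groups, which share one estimate of the spread, and fold changes on this scale understate those of low genes. The fit was tested on simulated data. The 74 spike-in rows were left out. Exact permutation tests over fish were two-sided and run in Python 3.11.15 with numpy 2.4.6, and p-values measure the spread between separate animals. Other software was pandas 2.3.3, matplotlib 3.10.9 and, for matching the study's genes, scipy 1.17.1. A total of 268 rows fell into 32 sets of identical rows.

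Members, lists and tests were chosen with earlier results of these data known. Of the table's identifiers 0 matched the 38438 genes of the reference, so the lists of pathway genes and tissue markers could not be applied. Tfeb, smad2, smad3b and smad4 were matched through the study's z-scores in young fish (largest difference 6.85e-06, next best row at least 0.116 away). Named genes were these 4, the 10 most abundant by rank, and the 2 identifiers with the largest change in each direction among called genes with a mean of at least 100 units, no overlap and no identical row. Alternatives were other scalings, pseudocounts of 0.1 and 5, filters, the old fish alone, a replicate block, and each fish left out. The fit without the variance trend, the removal of the 20 genes of the block and the settings of the class medians were chosen after seeing the data.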

Additional observations from a re-analysis of the deposited data

Results flagged for a closer look

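In 74 groups of 4 fish, 6 held a fish far from the other 3 by Dixon's test at the 95% level, which chance alone flags in about 5% of groups. Old fasted replicate 1 stood at 0.29 along the young fasting response, against 0.48 to 0.50 in the other old fasted fish. Old fasted replicate 3 needed 32 genes to hold 50% of its total (19 to 21 in the other old fasted fish) and 4365 genes to hold 90% (3953 to 3983). Old refed replicate 3 had the lowest median of the genes from 1000 to 10000 units relative to the median gene, 3.10 on the log2 scale against 3.22 to 3.24, and also the lowest rough depth. Its part in the results was tested by leaving it out. The value of ENSNFUG00015009623 in old fasted replicate 4 was 657 units (293 to 353 in the others), and that of ENSNFUG00015017198 in old fasted replicate 3 was 171 units (46.7 to 66.4).

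For ENSNFUG00015018457 the fasting effect in old minus that in young fish was 2.53 on the log2 scale (limma adjusted p = 0.0193). It also differed for the class medians relative to the median gene, by -0.30 below 10 units, -0.19 from 10 to 100, 0.059 from 100 to 1000, 0.16 from 1000 to 10000 and 0.26 at 10000 units and over (permutation adjusted p = 0.00816, 0.00816, 0.0241, 0.0197 and 0.0241). Age and depth cannot be told apart here.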

How the results depend on the processing

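Scaling moved the counts most. On equal totals and on the spike-in scale, genes without overlap were 339 and 123 higher and 7373 and 12129 lower, and switch-like genes were 6 and 3 higher and 120 and 361 lower. Called genes were 459 and 178 higher and 7918 and 13916 lower on these scales. With equal totals after the 50 most abundant genes were left out, 1483 were higher and 3565 lower. At an adjusted p under 0.01, 1097 were higher and 1317 lower. The class medians, from the lowest class to the highest, were -0.37, -0.40, -0.39, -0.28 and 0.0059 on equal totals and -0.61, -0.69, -0.68, -0.57 and -0.29 on the spike-in scale. On these scales tfeb had -0.19 and -0.49 and smad2 -0.14 and -0.43. Both were called lower on the spike-in scale (limma adjusted p = 0.0172 and 0.000856), where smad3b had 0.13 (adjusted p = 0.459). On the spike-in scale smad4 had -0.055 and the most abundant gene -0.20. These scales divide by totals or spike-ins that themselves differed between the groups.

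With the replicate number as a block in the 8 old fish, 1283 genes were higher and 1643 lower. Same-numbered fasted and refed fish deviated together with r of -0.18, 0.00, 0.12 and 0.05, against -0.35 to 0.29 for unlike-numbered fish. No pairing by number was thus seen, though so few values cannot exclude one.

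With each fish left out in turn, called genes were 1586 to 2198 higher and 1921 to 2619 lower. Switch-like genes were 25 to 47 higher and 14 to 96 lower, counts that can only stay or rise when a fish is left out. The difference in the share of the 50 most abundant genes was 8.47 to 10.3 points. The class effect in old fish relative to the median gene was -0.011 to 0.063 below 10 units (-0.00015 with the level taken from young fish), 0.016 to 0.035 from 100 to 1000, 0.067 to 0.116 from 1000 to 10000 (p = 0.0571 without fasted replicate 3 or 4, exact permutation test) and 0.38 to 0.46 at 10000 units and over. The difference between ages from 100 to 1000 units was 0.048 to 0.066 (permutation p = 0.0522 without fasted replicate 4). Of the alternatives tried, 290 for comparisons and 275 for named genes were kept, 3 and 6 reversed and 38 and 69 changed otherwise. For shares, class medians relative to the median gene and named genes, kept means the same direction and side of the threshold. For gene counts it means only within a set ratio of the main count, so that 1586 higher genes against 2253 were kept. For medians of log2 fold changes it means a move smaller than the SD between fish.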
